A study of Mus musculus with 2 samples.

Results

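Between the RefSeq transcripts that the deposited files list, assembly of the reads found spliced transcripts at 870 loci in spermatogonial progenitor cells (SPCs) with and without Dnmt3l. Each locus comes from models assembled from the reads with 2 or more exons and a spliced length of 300 nt or more, whose span touches no span of a RefSeq transcript listed in the deposited files on either strand. Of 40994 assembled models in both libraries, 1528 met these conditions, 592 in wild-type SPCs and 936 in the knockout library, and overlapping models of the same strand were joined into 1 locus. The value of a locus is its FPKM (fragments relative to transcript length and to all mapped fragments) summed over its models in a library. Exon number, length and position chose the loci, so these values are given only as a description.

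RNA came from SPCs of C57BL/6 testes collected 8 days after birth, in 1 library labelled wild-type and 1 labelled Dnmt3l knockout. Polyadenylated RNA was selected from 2 µg of RNA and read as paired ends of 100 nt. The labels do not say how many animals were pooled, how SPCs were purified or how the knockout allele was made. With 1 library of each genotype no difference has a replicate check, no test was made, and every value describes these libraries.

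Transcripts between annotated genes include long noncoding RNAs (lncRNAs), transcribed pseudogenes, parts of coding genes that an annotation leaves out, and pieces of messages that assembly did not join. The testis is known for a rich supply of such transcripts, and many lncRNAs of germ cells start near the promoter of a coding gene, on the other strand. DNMT3L has no catalytic activity of its own and aids the de novo DNA methyltransferases, which methylate CpG sites, CG read 5′ to 3′, in male germ cells before birth.

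For 94 loci, RefSeq (build GRCm38.p6, whose chromosomes are those of mm10) gives a promoter of the gene of that name that starts within 500 bases of the model start. Their windows, from 250 bases before to 50 bases after the start, held a median of 11 CpG sites, against 7 over all 32851 promoters of that table. An observed-over-expected CpG ratio of 0.6 or more was found in 45.7% of the 94 windows and in 35.8% of all promoters. The windows of 4 loci are shown because they belong to loci whose levels are described below and because their CpG counts run from 1 to 27, with each CpG in capitals. A CpG reads the same on both strands, and its count says nothing about methylation, which was not measured here. The first lies between a pair of highly expressed loci of the X chromosome (Gm4779 at chrX:101794396-101794695, minus strand), and 23.1% of all promoters hold as many as its 22 CpG sites or more. The window of the long noncoding Gm4316 (chr8:123172312-123172611, plus strand), among the loci with the largest ratios between the libraries, holds 1 CpG, and 14.1% of promoters hold as few. The window of B230354K17Rik (chr17:45433581-45433880, plus strand), spliced in the wild-type library only, holds 27, a number reached by 15.5% of promoters. The window of Zim2 (chr7:6662319-6662618, minus strand), from the imprinted domain of Peg3, holds 9, a number reached by 45.8%.
Gm4779: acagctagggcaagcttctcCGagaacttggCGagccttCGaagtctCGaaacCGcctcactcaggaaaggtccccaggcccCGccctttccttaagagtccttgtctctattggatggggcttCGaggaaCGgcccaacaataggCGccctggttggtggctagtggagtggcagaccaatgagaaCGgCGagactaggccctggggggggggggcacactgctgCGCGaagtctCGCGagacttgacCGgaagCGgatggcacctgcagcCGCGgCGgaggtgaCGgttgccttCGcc
Gm4316: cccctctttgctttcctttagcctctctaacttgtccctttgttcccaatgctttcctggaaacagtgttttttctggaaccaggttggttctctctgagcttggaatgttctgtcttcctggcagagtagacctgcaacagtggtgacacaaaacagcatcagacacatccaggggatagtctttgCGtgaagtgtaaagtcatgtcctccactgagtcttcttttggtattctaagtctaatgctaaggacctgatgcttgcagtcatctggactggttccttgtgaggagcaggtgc
B230354K17Rik: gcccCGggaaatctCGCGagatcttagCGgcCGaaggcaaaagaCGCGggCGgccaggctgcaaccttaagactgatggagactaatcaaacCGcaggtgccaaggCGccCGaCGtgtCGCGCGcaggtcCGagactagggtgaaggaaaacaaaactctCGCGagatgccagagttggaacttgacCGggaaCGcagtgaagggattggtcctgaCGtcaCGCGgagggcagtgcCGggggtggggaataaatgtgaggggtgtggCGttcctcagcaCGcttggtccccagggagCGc
Zim2: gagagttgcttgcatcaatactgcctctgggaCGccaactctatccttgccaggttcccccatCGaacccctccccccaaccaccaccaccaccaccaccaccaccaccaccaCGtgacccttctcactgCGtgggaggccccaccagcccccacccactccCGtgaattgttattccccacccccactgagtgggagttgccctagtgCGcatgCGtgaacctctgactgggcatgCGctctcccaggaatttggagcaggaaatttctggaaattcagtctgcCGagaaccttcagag

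Splicing is what set these loci apart from the more numerous unspliced models, so the junctions of 4 loci at least 2-fold apart between the libraries are shown as well. They are taken from the GENCODE M21 transcript with the same chain of introns, with 15 bases from each side of the first junction and the second exon in capitals. The junctions join base 123173043 to 123177850 of chromosome 8 in Gm4316, 35485158 to 35479142 of chromosome 10 in 1700054O05Rik, 6662313 to 6658947 of chromosome 7 in Zim2, and 21543345 to 21545309 of chromosome 12 in Gm19196.
Gm4316 junction: ctggaaagctcccagGACTGCCGCCAGCCG
1700054O05Rik junction: ctttagtaaacagagGGTGTAACCCCCCCA
Zim2 junction: ccttcagagagccagGCTCAGGACCCTGCG
Gm19196 junction: gatgtggaggaggtgAAAGCGTTCAGAGAC

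Without read counts in the files, sequencing depth is unknown and no counting interval can be given. The median coverage per 1 FPKM was 3.13 for wild-type and 3.45 for knockout models. Each FPKM has a lower and an upper bound, which describe its estimation from the reads of 1 library and not how animals vary, and for 20 of the 1528 models the FPKM lay outside its own bounds. Dnmt3l itself was at 1.67 FPKM for wild-type SPCs and was listed at 0 in the knockout library. All 10 markers of germ cells were measured, with summed levels of 1031 FPKM in wild-type SPCs and 875 FPKM in the knockout library (4 of 10 higher there). The 14 markers of undifferentiated spermatogonia summed to 380 and 434 FPKM (12 of 14 higher). The lower ones were Zbtb16, at 55.4 FPKM in wild-type SPCs and 27.9 FPKM in the knockout library, and Itga6, at 24.9 and 10.6 FPKM. The 6 markers of differentiating spermatogonia summed to 297 and 219 FPKM, with 0 of 6 higher in the knockout library and Kit at 21.7 and 5.93 FPKM. The 12 Sertoli cell markers summed to 423 and 992 FPKM (11 of 12 higher in the knockout library, Tsx at 0 in the wild-type), the 6 Leydig cell markers to 60.5 and 136 FPKM (4 of 6 higher, Star at 0 in both), the 6 peritubular markers to 294 and 453 FPKM (5 of 6 higher), and the 7 endothelial markers to 54.6 and 112 FPKM (5 of 7 higher). The 9 macrophage and leukocyte markers summed to 418 and 816 FPKM (7 of 9 higher, Cd68 at 0 in the knockout library). Markers of somatic cells thus stood higher, and those of differentiating spermatogonia lower, in the knockout library, and their part in these results was not tested. The median RefSeq gene was itself higher in the knockout library, by 0.21 on a log2 scale. In bulk RNA, more cells of a type and more RNA per cell cannot be told apart.

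Most loci were small and weakly expressed. The median locus had 2 exons in its longest model, a spliced length of 1200 nt and a span of 6092.5 bases, and 439 loci (50.5%) had exactly 2 exons. Among loci with a model, the FPKM ranged from 0.316 to 139 in the wild-type library with a median of 1.93 (438 loci), and from 0.365 to 209 in the knockout library with a median of 2.27 (687 loci). RefSeq genes above 0 had medians of 7.04 and 7.54 FPKM. Levels of 10 FPKM or more were reached by 32 loci in wild-type SPCs and 65 in the knockout library. Just under the length limit, 12 spliced models of 250 to under 300 nt lay outside it, 2 in the wild-type with a median of 9.75 FPKM and 10 in the knockout library with a median of 7.03 FPKM. Just inside, 9 models of 300 to under 350 nt in each library had medians of 7.41 and 8.38 FPKM.

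Only 255 loci had a model in both libraries, 183 had one in the wild-type library only and 432 in the knockout library only. A locus without a model is not a measured 0, so the other library was searched for any model over the same exons. It held no model at 113 of the 183 wild-type loci and at 317 of the 432 knockout loci. An unspliced model lay there in 57 and 84 cases, and a spliced model that ran on into a RefSeq span in 7 and 26 cases. The rest were a spliced model on the other strand (3 and 3) or one under the length limit (3 and 2). With every such model counted, the share of loci seen in only 1 library was 49.4% in place of 70.7%. Loci in only 1 library were also lower, with median levels of 1.41 FPKM in wild-type SPCs and 1.86 FPKM in the knockout library, against 4.06 FPKM in the higher library for loci in both. Even where both libraries had a locus, they did not always agree on its structure. At least 1 intron was joined identically in 230 of the 255, but over all their introns 622 of 1214 were joined in both.

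**Figure D1:**
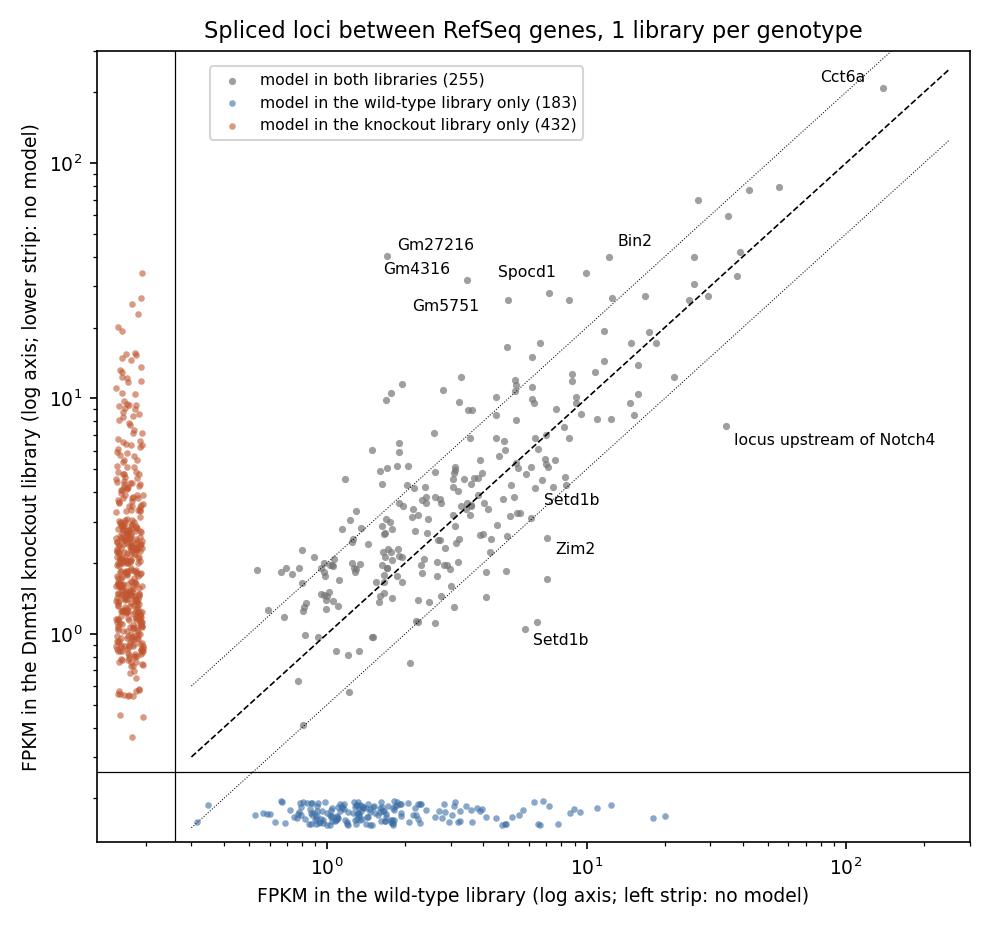
FPKM of each of the 870 loci in the wild-type (x axis) and Dnmt3l knockout library (y axis), both on log axes, 1 point per locus; strips at the left and bottom hold the 432 and 183 loci with a model in only 1 library, the dashed line marks equal FPKM and the dotted lines a plain FPKM ratio of 2 either way. Gm27216 and Gm4316 lie farthest above the line of equal FPKM, and Nxpe4 and Setd1b farthest below it.

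The summed FPKM of all loci was 1888 in wild-type SPCs and 3327 in the knockout library, which is 0.573% and 0.826% of the sum over RefSeq transcripts. Ratios were computed for 251 loci with models in both libraries and 1 FPKM or more in the higher one, as log2((knockout FPKM + 1)/(wild-type FPKM + 1)), a scale that understates the difference of low loci. At least 2-fold higher in the knockout library were 32 loci, 12.7% of those compared, beside 5.52% of 13328 RefSeq genes and 5.28% of 1420 unspliced loci between the same genes. At least 2-fold lower were 7 loci, or 2.79%, beside 2.27% of RefSeq genes and 3.1% of unspliced loci. The FPKM of a RefSeq gene also took in assembled models that reach its span, while a locus counted only models that met the conditions. The shares of loci and of RefSeq genes thus rest on unlike measures. On these measures the shares of lower loci were close to each other, and the share of higher loci was above both backgrounds in these libraries. The median log2 ratio of the loci was 0.25, near the 0.21 of RefSeq genes. The difference in the share of higher loci thus lies in the upper tail of the ratios. Relative to the median RefSeq gene of 1 FPKM or more in both libraries, which stood 0.21 higher in the knockout library, 20 loci were at least 2-fold higher and 11 lower, beside 2.83% and 4.25% of RefSeq genes. Bounds did not overlap for 29 of the 32 higher and 6 of the 7 lower loci. With every overlapping model counted, of any kind, 435 loci could be compared, of which 52 were higher and 28 lower. The shares of higher and of lower loci were then both above those of RefSeq genes and of unspliced loci. How close the shares of lower loci lay thus depended on which models a locus counted. Across the 251 loci levels on the log2 scale correlated with a Pearson r of 0.80 (Spearman rho 0.73), a description of points that share both libraries.

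The loci that were higher in the knockout library were spread over the classes of gene. They were 12 of the 92 compared loci that overlapped a GENCODE lncRNA, 10 of the 68 on a coding gene, 9 of the 67 without a GENCODE exon on their strand, and 1 of 2 on a gene of unsettled class. Among the loci compared, the largest ratio was that of Gm27216, a lncRNA gene of 3 exons on chr9:83240546-83250399 that lies 93938 bases upstream of Hmgn3. It stood at 1.70 FPKM (bounds 0.566 to 2.72) in wild-type SPCs and 40.1 FPKM (35.7 to 44.6) in the knockout library, which gives a log2 ratio of 3.93. Both introns were joined identically in both libraries, so models of the same splicing were compared.

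The 2-exon lncRNA Gm4316 on chr8:123172837-123178769, whose promoter window and junction are shown above, was at 3.45 FPKM in wild-type SPCs and 31.8 FPKM in the knockout library. Its log2 ratio was 2.88 with the same intron in both, and the knockout value lay above its own upper bound of 30.9. The lncRNA 1700054O05Rik on chr10:35478824-35485485, 867593 bases from the nearest listed RefSeq transcript, was at 7.15 FPKM in wild-type SPCs and 28.1 FPKM in the knockout library. Its bounds, 4.96 to 9.34 and 24.1 to 32.1, lay apart.

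Gm41492 on chr16:91137327-91200020 lies 25529 bases from Olig2, a transcription factor of the oligodendrocyte lineage, on the opposite strand. It was at 1.76 FPKM in wild-type SPCs and 10.6 FPKM in the knockout library, with both introns shared. The models differed in length, with 1480 nt in the wild-type and 374 nt in the knockout library. A share of 0.108 of the exon bases of this locus lies in the GENCODE lncRNA of that name. Olig2 itself was listed at 0 in both libraries.

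Of the 9 higher loci without a GENCODE exon on their strand, a pair had among the largest ratios. The 4-exon locus chr19:55992697-55997758, 59041 bases from Tcf7l2, was at 1.69 FPKM in wild-type SPCs and 9.87 FPKM in the knockout library, which is 1 model against the sum of 3. With the highest model alone its log2 ratio was 0.91 in place of 2.01, under 2-fold. The 2-exon locus chr3:8019398-8022900, 64510 bases from 1700010I02Rik, was at 1.95 and 11.6 FPKM, but its libraries shared no intron. Lncenc1, a lncRNA known from embryonic stem cells, was lower in level, with 1.89 FPKM in wild-type SPCs and 5.91 FPKM in the knockout library.

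**Figure D2:**
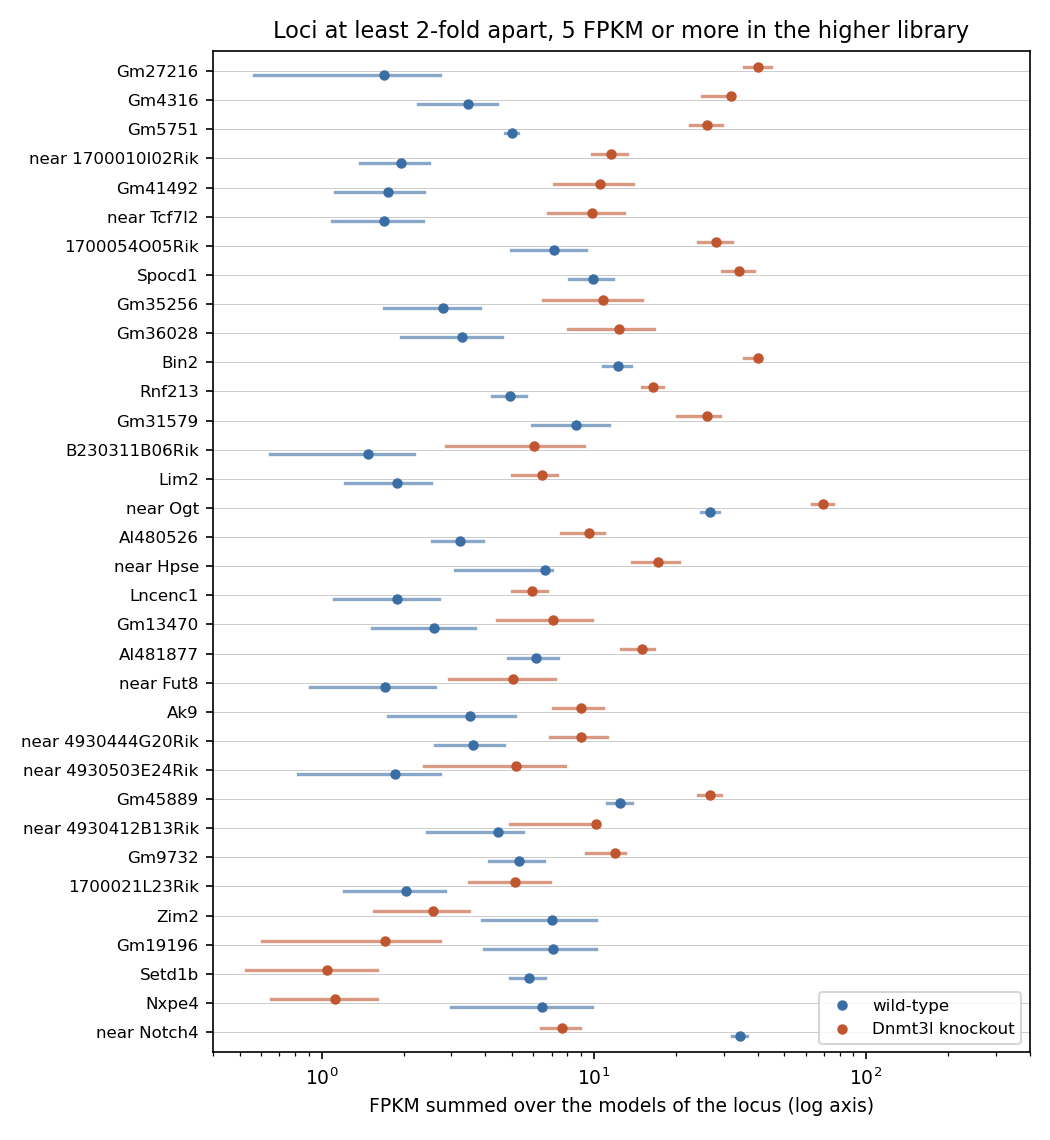
FPKM (log axis) of the loci at least 2-fold apart with 5 FPKM or more in the higher library, wild-type in blue and Dnmt3l knockout in orange; points are the FPKM summed over models and lines run from the summed lower to the summed upper bounds, and loci without a GENCODE name are called by their nearest gene. The knockout points lie to the right of the wild-type points in all rows except the lowest 5, Zim2 to the locus near Notch4.

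Several higher loci were parts of coding genes for which the deposited files list no overlapping RefSeq transcript. Spocd1, whose protein is needed for piRNA-directed DNA methylation of transposons in the male germ line, formed a locus of up to 14 exons on chr4:129928656-129957103. Its summed level was 9.95 FPKM (8.11 to 11.8) in wild-type SPCs and 34.2 FPKM (29.6 to 38.8) without Dnmt3l, and the log2 ratio was 1.68. The models differed in extent. The wild-type library had models of 12, 13 and 14 exons over nearly the same span, at 2.37, 2.96 and 4.62 FPKM. The knockout library had models of 14 exons at 6.35 and 7.45 FPKM, and also a model of the last 8 exons alone at 20.4 FPKM. No model limited to those exons was assembled in the wild-type library.

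Bin2 encodes a membrane-bending protein found mainly in leukocytes, and its 11-exon locus on chr15:100640852-100670037 was at 12.3 FPKM in wild-type SPCs and 40.0 FPKM in the knockout library. All 10 introns were shared. With an unspliced wild-type model of 7.98 FPKM over its exons counted, the log2 ratio was 0.95 in place of 1.63, just under 2-fold. An intron of the locus holds the hairpin of miR-6961, the only microRNA of the RefSeq table within any of the loci. Bin2 moved together with the macrophage and leukocyte markers given above, and their part in its ratio was not tested.

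Rnf213, a very large ubiquitin ligase, gave a locus of up to 28 exons with 4.93 FPKM in wild-type SPCs and 16.5 FPKM in the knockout library. Its direction depended on what was counted, because the wild-type library also held a 67-exon model of 6.67 FPKM that reaches a RefSeq span and an unspliced one of 16.0 FPKM. With those included the log2 ratio was -0.70 in place of 1.56, and with the highest model alone it was 0.98. Gm5751 on the X chromosome, at 4.99 and 26.1 FPKM, was assembled as 1 model of 19389 nt in wild-type SPCs and as 3 shorter models in the knockout library, of which the highest had 15.1 FPKM. By that model alone its log2 ratio was 1.43 in place of 2.18. Only a share of 0.0228 of the exon bases of the Gm5751 locus lies in that GENCODE coding gene, and 4 of its 9 introns are GENCODE introns.

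**Figure D3:**
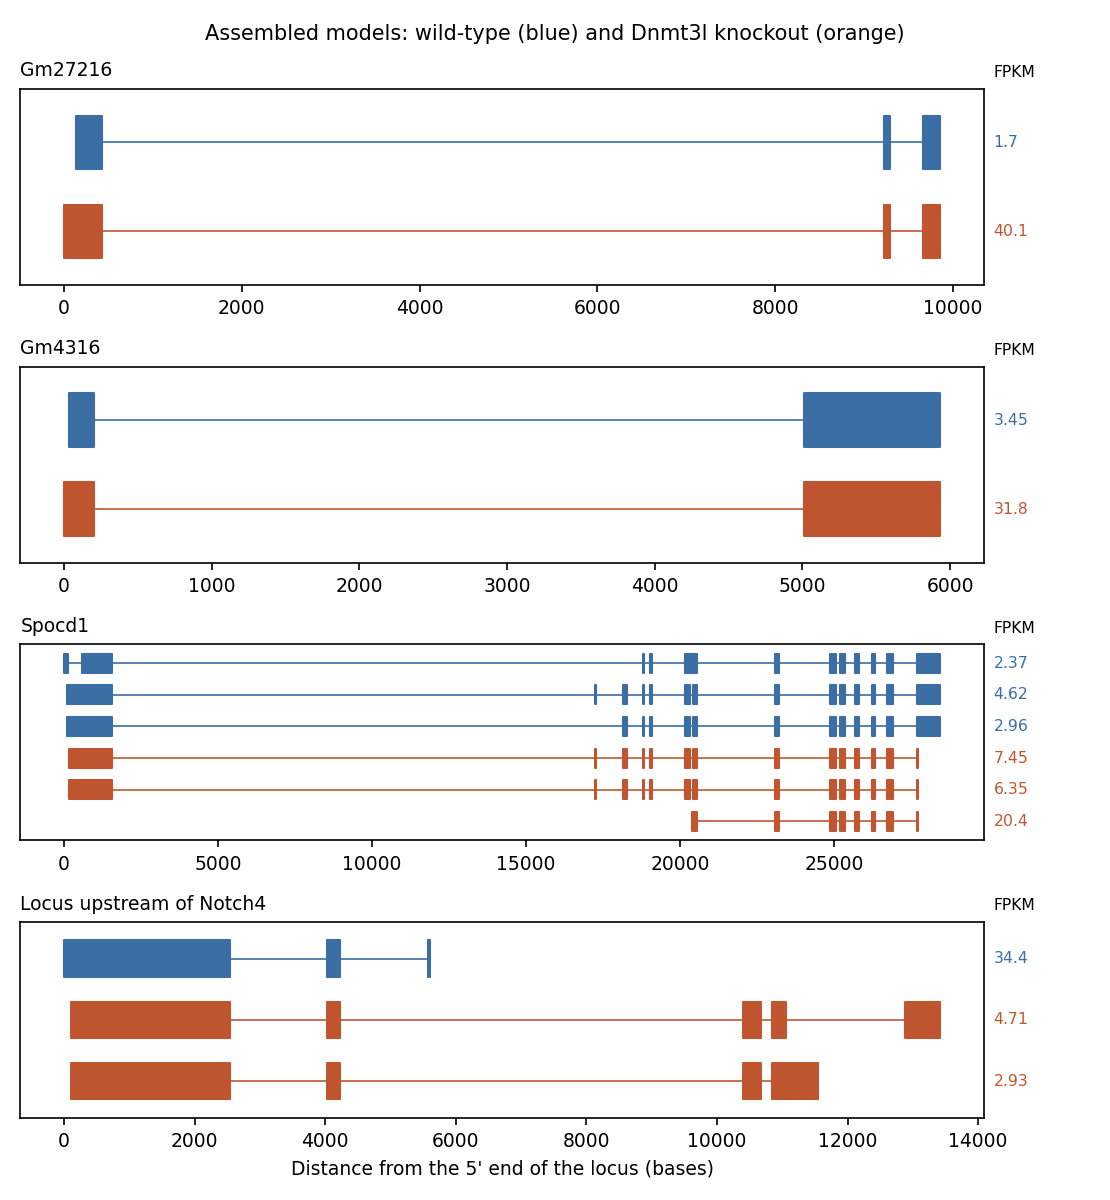
Exons (boxes) and introns (lines) of the assembled models of 4 loci by distance in bases from the 5′ end of the locus, wild-type in blue and Dnmt3l knockout in orange, with the FPKM of each model at the right. Gm27216 and Gm4316 have the same introns in both libraries, Spocd1 has a short knockout model of 20.4 FPKM, and the locus upstream of Notch4 ends differently in each library.

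Of the 7 loci at least 2-fold lower in the knockout library, the most abundant lay on chr17:34543470-34556887, 7407 bases upstream of Notch4, without a GENCODE exon on its strand but within the lncRNA gene Gm31560 of the current RefSeq table. It was at 34.4 FPKM in wild-type SPCs and 7.65 FPKM in the knockout library, a log2 ratio of -2.03 that was the lowest of the 7 with the pseudocount of 1 FPKM but not with one of 0.1 FPKM, where Nxpe4 (-2.42) and Setd1b (-2.35) lay below its -2.16. With a pseudocount of 5 FPKM, 1 locus was still 2-fold lower. The ends of its models differed, and the knockout library held an unspliced model of 18.7 FPKM over the same exons. With every overlapping model counted the log2 ratio was -0.51, which is no longer 2-fold. GENCODE places the pseudogene Btnl7-ps on the opposite strand there, and the protocol names no step that keeps the strand of a read.

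Zim2 lies in the imprinted Peg3 domain, 13065 bases downstream of Zim1, a zinc finger gene at 12.4 FPKM in wild-type SPCs and 2.46 FPKM in the knockout library. Its locus of up to 5 exons, whose promoter window and junction are shown above, was at 7.05 FPKM (3.88 to 10.2) in wild-type SPCs and 2.56 FPKM (1.55 to 3.49) in the knockout library. The bounds lay apart and 3 introns were shared, but the models differed: the 5-exon wild-type model is 355 nt long, and the 4-exon knockout model of 1011 nt lacks the first exon and so the junction and start shown above. The log2 ratio of -1.18 was the same with every overlapping model counted, since no other model lay there.

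Setd1b encodes a histone H3 lysine methyltransferase, and its 5′ part formed a locus on chr5:123141984-123151955 with 5.78 FPKM in wild-type SPCs and 1.05 FPKM in the knockout library. A separate locus over the 3′ part of the same gene, chr5:123152096-123168621 with 10 introns shared, had 6.36 FPKM in wild-type SPCs and 4.17 FPKM in the knockout library. The log2 ratio was -1.72 for the 5′ part and -0.51 for the 3′ part of this gene. The spans of the 5′ part and of the lncRNA AI480526 on the opposite strand overlap by 237 bases, and AI480526 went the other way, from 3.23 FPKM in the wild-type to 9.63 FPKM in the knockout library. Reads in the overlap cannot be assigned to a strand.

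Nxpe4 and Gm19196 were a further pair of lower loci. The 323-nt wild-type model of Nxpe4 had 6.43 FPKM against 1.12 FPKM for a longer knockout model. The transcribed pseudogene Gm19196 had 7.07 and 1.70 FPKM. With every overlapping model counted their log2 ratios shrank to -0.24 and -0.39, because each had an unspliced knockout model over the same exons. By the highest model alone Gm19196 was at -0.85, under 2-fold. Loci without a GENCODE exon on chr9:6595161-6601274 (4.89 and 1.85 FPKM) and chr11:6688034-6696386 (4.10 and 1.44 FPKM) complete the 7. Among the loci under 2-fold lower with bounds apart were chr11:61391129-61397774, within the RefSeq lncRNA gene Gm42081 (15.3 and 8.47 FPKM), and the pseudogene Gm378 (6.12 and 3.12 FPKM). Another, at 8.30 and 4.28 FPKM, was named Gm39469 although only a share of 0.00859 of its exon bases lies in that GENCODE lncRNA. The current RefSeq table has a coding gene there. Centring on the median gene brought Gm39469 past 2-fold, at -1.02 in place of -0.82, and the highest model alone gave Gm378 a log2 ratio of -0.06 in place of -0.79.

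The highest locus in both libraries was a 3-exon locus on chr5:129844729-129846292 that GENCODE assigns to Cct6a, a subunit of the cytosolic chaperonin, at 139 FPKM in wild-type SPCs and 209 FPKM in the knockout library. It lies 50228 bases beyond the listed Cct6a transcript, which went the other way with 219 and 157 FPKM. Its nearest listed transcript is that of Sumf2, 697 bases away, with the locus upstream on the same strand. By its GENCODE type, processed transcript, the locus counts here among the lncRNA loci. The GENCODE transcript with its introns has a longest open reading frame of 45 codons.

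On the X chromosome, Gm4779 (chrX:101790296-101794451) and 8030474K03Rik (chrX:101794564-101798582) lie head to head with 112 bases between their spans, and the CpG-rich window printed above covers the gap. Gm4779 was at 55.0 FPKM in wild-type SPCs and 79.5 FPKM in the knockout library. 8030474K03Rik was at 42.4 and 76.5 FPKM. Both pairs of bounds lay apart and both loci were under 2-fold higher.

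Another locus of the same region, chrX:101695521-101706194, for which the current RefSeq table has the coding gene Gm52429, was at 26.8 FPKM in wild-type SPCs and 69.5 FPKM in the knockout library, again 1 model against 3. Its log2 ratio of 1.34 became 0.79 with the highest model alone, under 2-fold. The lncRNA AU020206 was at 35.0 and 59.9 FPKM, although no intron of its models was shared. Its log2 ratio of 0.76 passed 2-fold with the highest model alone (1.54) and with every overlapping model (1.19). The 3-exon locus chr2:170670957-170673839 had 39.2 and 41.7 FPKM and the X-linked Gm18336 37.9 and 33.2 FPKM, both under 2-fold apart. None of the loci lay on the Y chromosome and 47 (5.4%) on the X, beside 0.345% and 4.39% of the named RefSeq genes.

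Among loci in 1 library only, some of the highest had a counterpart that the conditions left out. In the knockout library the highest was Gm42715, a 10-exon locus within the gene of the chromatin remodeller Srcap, at 34.2 FPKM. The wild-type library held a 35-exon model of 41.4 FPKM there that reaches a RefSeq span, so these exons were present in both libraries. In the wild-type library the highest was the lncRNA 2400006E01Rik with 20.1 FPKM, where the knockout library held a spliced model of 19.7 FPKM that was 295 nt long and so under the length limit. B230354K17Rik, at 12.4 FPKM in the wild-type library, had unspliced knockout models of 10.1 and 1.48 FPKM over its exons.

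Others had no model of any kind in the other library. Gm14230, a locus of 2 exons that starts 6462 bases from Tgif2 on the other strand, was at 26.7 FPKM (24.9 to 28.5) in the knockout library. A share of 0.137 of its exon bases lies in the GENCODE lncRNA of that name, and the current RefSeq table has a coding gene there. The unannotated locus chr2:42732973-42750810 was at 25.3 FPKM (20.2 to 30.3) there, and chr5:6612381-6620083 was at 22.8 FPKM, although its own bounds end at 17.5 FPKM. Among wild-type loci, Gm21092, an unprocessed pseudogene, was at 18.1 FPKM, also above its upper bound of 15.7, and the pseudogene Gm6215 was at 11.0 FPKM.

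Levels of 5 FPKM or more with no model in the other library were found at 43 knockout loci and at 7 wild-type loci. By class of the overlapping GENCODE gene, 25 of the 43 had no exon on their strand, 15 were lncRNAs, 1 was coding, 1 a pseudogene and 1 of unsettled class. The 7 wild-type loci held, by the same class, 3 pseudogenes, 3 coding genes and 1 lncRNA. These are 24.7% and 4.02% of the 174 loci that reached 5 FPKM in a library. Of 10507 RefSeq genes that reached the same level in a library, 1.58% were listed at 0 in wild-type SPCs and 0.752% in the knockout library. A locus without a model differs from a listed gene at 0, since assembly needs enough joined reads to make a model at all.

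By GENCODE M21 of the same build, 474 loci (54.5%) shared an exon with a gene on their strand. These were 240 lncRNA, 165 coding and 57 pseudogene loci, 6 constant segments of immune receptors, and 6 of other classes. Of the 2513 introns of all loci, 46.6% are GENCODE introns, and for 120 loci the whole chain of introns was that of a GENCODE transcript. On either strand, 362 loci had no GENCODE exon, and 191 of them also lay outside the gene spans of the RefSeq GRCm38.p6 table. A GENCODE exon was present in 73.3% of the loci in both libraries, in 55.2% of those in the wild-type only and in 43.1% of those in the knockout only. Beside the 12.7% higher and 2.79% lower over all loci compared, 11 of 64 lincRNA loci (lncRNAs that GENCODE places between genes) were at least 2-fold higher and 0 lower, and 0 of 21 pseudogene loci were higher and 1 was lower. Counts of this size were not tested against that share.

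**Figure D4:**
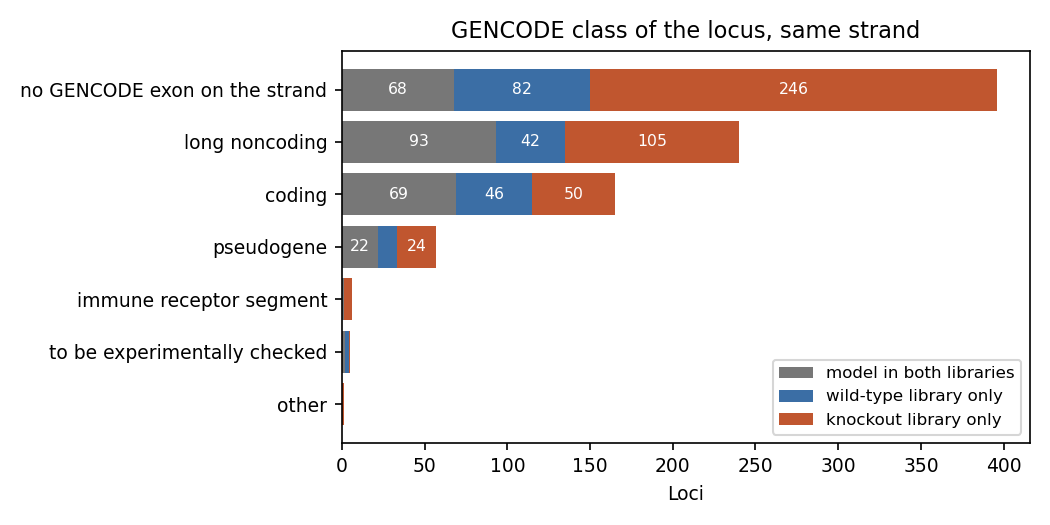
Number of loci (x axis) by class of the GENCODE gene with which they share most exon bases on the same strand, split into loci with a model in both libraries (grey), in the wild-type only (blue) and in the knockout only (orange). The class without a GENCODE exon is the most numerous, with 246 of its 396 loci in the knockout library only.

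Some loci belonged to coding genes with known roles, grouped here after their values were seen. Of 6 germ cell genes with 7 loci, 4 loci were in both libraries and 3 in the wild-type only. Over all 870 loci, 183 were in the wild-type only and 432 in the knockout only. Of the 3, Rnf212 had 0.913 FPKM, while knockout models over its exons summed to 24.9 FPKM, with spliced assembly reaching a RefSeq span. Atf7ip2, at 1.38 FPKM, had no knockout model over its exons. Ankrd31, needed for meiotic DNA breaks in the region shared by the sex chromosomes, had a locus of up to 25 exons with 12.4 FPKM in wild-type SPCs and 8.16 FPKM in the knockout library. Tdrd12, a factor of piRNA biogenesis, had a wild-type locus of 11 exons at 7.75 FPKM, while a knockout model of 4.88 FPKM there reaches a RefSeq span. Slc26a8, an anion transporter of germ cells, had a 14-exon locus at 3.11 and 4.98 FPKM. Apart from Spocd1, these germ cell loci were under 2-fold apart or could not be compared.

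Genes of the axoneme and cilium, the motile core of the sperm tail, were present in small pieces. Their 9 genes had 15 loci, of which 6 were in both libraries, 6 in the wild-type only and 3 in the knockout only. None exceeded 3.58 FPKM, and none of those compared was 2-fold apart. Dnah14, a dynein heavy chain, had a wild-type piece of 3.26 FPKM and other pieces of 1.17 and 1.26 FPKM in the knockout library. Cfap61 had a locus of up to 12 exons in both, at 1.54 and 1.66 FPKM. Syne1, which encodes a giant protein of the nuclear envelope, gave 5 wild-type loci between 1.14 and 1.62 FPKM and no knockout locus. The presence of such pieces in 1 library is no measure of a difference, since a missing model is not a measured 0.

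Loci of 10 or more exons numbered 32, and the longest chain, of 34 exons, belonged to Stard9, a kinesin of the mitotic spindle. It was at 11.7 FPKM in wild-type SPCs and 19.3 FPKM in the knockout library, and 10 of its 35 introns were joined in both. With every overlapping model counted its log2 ratio was 0.05 in place of 0.68, and with the highest model alone it was 1.12. Ccdc162, with up to 22 exons, was at 5.82 and 4.76 FPKM, with the sign of its log2 ratio turning from -0.25 to 0.14 with the highest model alone.

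Constant segments of immune receptors, which mark B and T cells, made up 6 loci. Ighm, the heavy chain of immunoglobulin M, was in both libraries, at 9.54 FPKM in wild-type SPCs and 8.63 FPKM in the knockout library. The T cell receptor segments Trbc1 (4.77 FPKM), Trac (2.47 FPKM), Trdc (2.01 FPKM), Tcrg-C1 (1.62 FPKM) and Tcrg-C4 (1.11 FPKM) were in the knockout library only, with no model of any kind over their exons in the wild-type library. For comparison, 432 of all 870 loci were in the knockout library only and 183 in the wild-type only. Ms4a4a, a membrane protein of macrophages, was at 6.18 and 11.1 FPKM. Apart from Ighm, these loci stood higher in the knockout library or had a model only there, together with 7 of the 9 macrophage and leukocyte markers, of which Ptprc, present on nearly all leukocytes, was at 2.29 FPKM in wild-type SPCs and 1.98 FPKM in the knockout library. The part of these cells in the result was not tested.

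Zinc finger genes, many of which repress transposons, had 9 loci of 8 genes, 3 in both libraries, 4 in the wild-type only and 2 in the knockout only. Over all 870 loci, 183 were in the wild-type only and 432 in the knockout only. Knockout models lay over the exons of all 4 wild-type-only loci. Unspliced ones summed to 3.30 FPKM at Zfp626, 2.77 at Zfp469 and 0.764 at Zkscan7. At Zfp950, with a spliced model under the length limit, the sum was 10.9 FPKM. Of the 2 knockout-only loci, Zfp853 had unspliced wild-type models of 2.60 FPKM and Zfp229 had none. Among the 9 loci, Zfp141 had the highest level, 8.19 FPKM in wild-type SPCs and 7.57 FPKM in the knockout library. Zfp977 was at 3.43 and 3.40 FPKM. None of the 3 loci in both libraries was 2-fold apart.

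The median distance from a locus to the nearest listed RefSeq transcript was 16826 bases, with 244 loci within 5000 bases and 260 beyond 50000. Within 5000 bases, divergent loci, which point away from the start of the neighbour, were the most numerous at 123. Another 46 were convergent, 43 lay upstream and 32 downstream on the same strand. Of 32 divergent loci within 5000 bases that could be compared, none was 2-fold higher or lower, with a median log2 ratio of 0.12. Of 15 loci compared that lay upstream on the same strand, 6 were at least 2-fold higher, with a median of 0.58. Over all loci compared the share of higher loci was 12.7%, and no position class was tested against it. Among the 6 were Spocd1, Bin2, Rnf213 and B230311B06Rik, the last 464 bases upstream of Tmc5, at 1.48 and 6.02 FPKM. With every overlapping model counted, Rnf213 reversed and Bin2 fell just under 2-fold, to a log2 ratio of 0.95. Another of the 6, Lim2, lies 268 bases from a listed transcript of the gene of its own name. Within 5000 bases, the highest divergent loci were BC022960, 294 bases from Hccs, at 29.4 FPKM in wild-type SPCs and 27.2 FPKM in the knockout library (log2 ratio -0.11, and -0.82 with the highest model alone), and Gm36899 near Ank, at 15.5 FPKM in the knockout library only. Among convergent loci, the lncRNA Gm16499 near Cpvl was at 5.37 and 3.26 FPKM. Counting every overlapping model turned the log2 ratio from -0.58 to 0.40. Downstream on the same strand, Gm7972 near Leo1 was at 8.77 and 11.9 FPKM, and the 3′ part of Rufy3 was at 11.9 FPKM in the knockout library only. Wild-type models that reach a RefSeq span there shared only 120 of its 1869 exon bases, and an unspliced one shared 122. A knockout model of 6.03 FPKM that reaches a RefSeq span shared 1651.

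The ratio of each locus was set beside that of its neighbour. Across 176 loci whose nearest gene was above the level limit, Pearson r between both log2 ratios was 0.10, and Spearman rho was 0.04. For the 55 pairs within 5000 bases they were 0.10 and -0.06. These are descriptions across loci of the same 2 libraries.

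**Figure D5:**
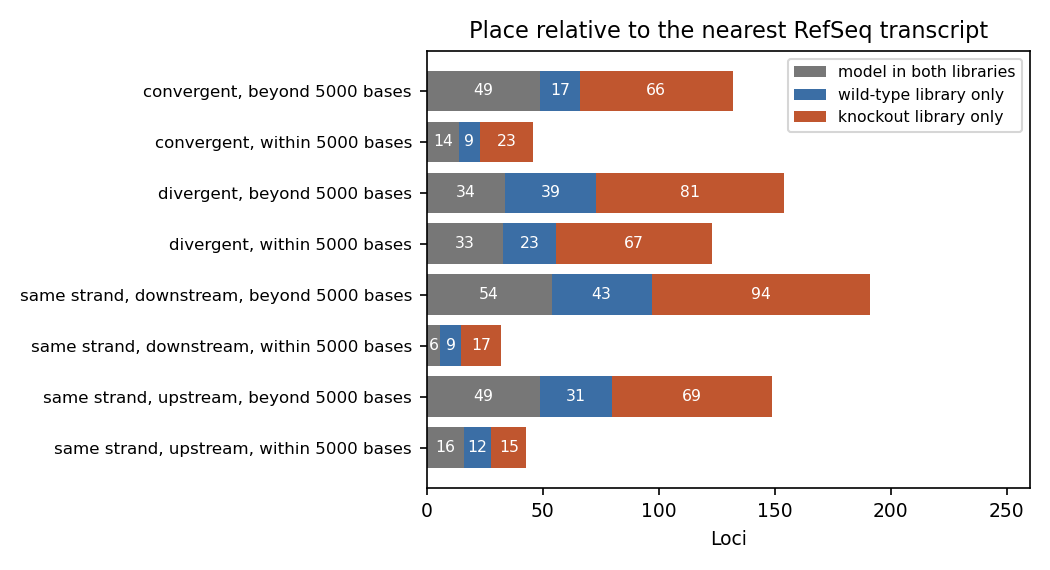
Number of loci (x axis) by orientation to the nearest listed RefSeq transcript, within or beyond 5000 bases, split into loci with a model in both libraries (grey), in the wild-type only (blue) and in the knockout only (orange). Within 5000 bases divergent loci are the most numerous, 123 in all, and 33 of them have a model in both libraries.

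The 120 loci with the intron chain of a GENCODE transcript allow a look at sequence. Model and transcript starts were a median of 46 bases apart and ends a median of 245.5. For the 35 whose 3′ ends lay within 50 bases, 25 (71.4%) of the GENCODE transcripts held a poly(A) signal, AATAAA or ATTAAA, in their last 50 bases. Other GENCODE transcripts, many of which have incomplete ends, held one in 40% of coding and 40.4% of long noncoding cases. Read on the opposite strand, the same windows of the 35 held one in 5.71%.

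The longest open reading frame from ATG had a median of 236 codons in 25 coding transcripts with such a chain and of 57 codons in the 95 others, beside 174 and 60 in other coding and long noncoding transcripts. The longest frame, 918 codons, belonged to a transcript of 6 exons that GENCODE calls a lincRNA, Gm37494, which was at 5.10 FPKM in wild-type SPCs and 4.27 FPKM in the knockout library. BC034090 (840 codons) was at 7.64 and 9.06 FPKM, and 2610021A01Rik (834 codons) at 7.57 and 5.48 FPKM. All 3 were under 2-fold apart.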

How the data were processed

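Libraries were grouped by the genotype in the labels. Per the submitters' processing notes, the tools were TopHat2 2.0.8, Cufflinks 2.1.1 and CASAVA 1.9, with build mm10; their settings are not given in the sources used here. FPKM, its bounds and a coverage were deposited for RefSeq transcripts and for assembled models. The score that the authors deposited in the same files was left out. Loci were chosen by exon number, length and position as stated in the report and compared with a pseudocount of 1 FPKM and a floor of 1 FPKM, in Python 3.11.15. The members, gene lists and rules were chosen with earlier results of these data known, and the grouping by gene role was made after the values were seen. Named loci were the 6 highest of each library, the 8 highest and 8 lowest ratios at 5 FPKM or more with bounds apart, the 4 highest of 1 library only, the 4 with most exons, the 4 with the longest reading frame and the 4 highest in each position class; others are named where counted. RefSeq identifiers received symbols by accession (29116 of 30079) or by GENCODE exon overlap (884), giving 23445 named genes. No strand-marking step is described per the labels' protocols. Loci took names from GENCODE M21 and promoters from RefSeq GRCm38.p6. A genome sequence was not used here, so planned shares of splice-site letters, poly(A) signals at model ends and repeats were not computed, and GENCODE transcripts with the same introns were read instead. Choosing and summing loci was tested on simulated data. Alternatives covered pseudocounts, floors, folds, centring, coverage, length and exon limits, merging, other models and distances.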

Additional observations from a re-analysis of the deposited data

How the results depend on the processing

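No paired analysis was possible because there is 1 library per genotype, and for the same reason none could be left out. The 32 higher and 7 lower loci became 14 and 1 with a pseudocount of 5 FPKM, 20 and 11 when centred on the median gene, 52 and 28 with every overlapping model, 64 and 25 at 1.5-fold, and 6 and 1 at 4-fold. Higher loci numbered 50 by coverage, and lower loci 11 with a pseudocount of 0.1 FPKM. The median log2 ratio became 0.12 with a pseudocount of 5 FPKM, 0.042 when centred and 0.43 by coverage. There were 431 loci with 3 or more exons. The share of loci in only 1 library was 49.4% with every overlapping model and 66.4% at 1 FPKM or more. An alternative chosen after seeing the data, every overlapping model of 300 nt or more, gave 49 higher and 27 lower loci and a share of 50.1%. Loci with at least 50% of their exon bases in GENCODE were 31%. Within 2000 bases, 28 loci were convergent, 11 downstream and 24 upstream. Within 10000 bases, 62 were downstream and 66 upstream. Rnf213 reversed to -0.70 with every overlapping model, also when limited to 300 nt or more. Apart from the centring, the cause of these shifts was not tested. Of 35 named loci in both libraries, none changed sign with either pseudocount, 1 did when centred, 1 by coverage, 1 with the highest model alone and 2 with every overlapping model. Without counts, depth sets an unknown limit on which loci could be assembled at all.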
